A study of Mus musculus with 4 samples.

Results

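Myo7a and Kctd14 lie 591.5 kb apart on mouse chromosome 7, and both were lower in intestinal organoids carrying a miR-181a-5p mimic. The region around them is represented here by 10 listed protein-coding genes of the 55487 genes in the tables. In chromosomal order these are Alg8, Thrsp, Kctd14, Ints4, Aamdc, Rsf1, Clns1a, Pak1, Myo7a and Capn5, which span 97371606 to 98178274 (806.7 kb) of GRCm38. Kctd14 and Myo7a were chosen by their measured expression, which was lower with the mimic in the comparison described below, so their own difference is given as a description without a test. The other 8 genes entered by position, and the question asked was whether they follow the pair.

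The RNA came from mouse small intestinal (SI) organoids, epithelial cultures grown out of crypts in IntestiCult medium. They were infected with lentivirus that expressed either a miRNA mimic control (2 libraries, numbered 1 and 2) or the miR-181a-5p mimic (2 libraries, numbered 3 and 4). Both groups were kept in puromycin at 2 μg/ml. The strain of the crypt donors is not given in the sources used here, nor is it stated whether each library had its own infection, so p-values measure the spread between these libraries, which may be technical. Libraries held 31104884 to 38111731 expected counts, RSEM's estimates of the reads from each gene. Levels are given in TPM, which is scaled by transcript length. Log2 fold changes compare mimic with control by edgeR's quasi-likelihood test on the counts of 17155 genes, and a gene is called at an adjusted p under 0.05. With 2 libraries against 2, the smallest p that exact permutation allows for one gene is 0.333.

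A miRNA acts on mature mRNAs one at a time, mainly through matches to its seed, bases 2 to 8 from the 5′ end, in the 3′ untranslated region (UTR). Genes that are neighbours on a chromosome can share enhancers, promoters or chromatin state, and a gain or loss of a chromosome segment changes the copy number of all genes in it. The members were grouped as a stretch of chromosome and not by a shared role. Myo7a encodes myosin VIIA, an actin-based motor of hair cell stereocilia whose loss causes deafness in Usher syndrome. Kctd14 encodes a protein of the KCTD family, which shares a BTB domain and includes adaptors of cullin ubiquitin ligases.

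The mature miRNA (RefSeq, GRCm38.p6) and the seed matches of 7 or 8 bases in the members' annotated transcripts are shown because they set the genes that were lower beside the genes that hold matches. Capitals mark the seed in the miRNA and the match in the transcripts, each written 5′ to 3′ on the strand of the gene. Rsf1 matches without a location lie in the 3′ UTR. The Kctd14 match lies in the coding sequence of 4 of its transcripts and in the 3′ UTR of 1.
mmu-miR-181a-5p: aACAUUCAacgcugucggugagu
Kctd14, 8mer at chr7:97457604-97457611: tgtggagcTGAATGTAggagggca
Rsf1, 8mer at chr7:97687201-97687208: gcagggttTGAATGTAgttttggc
Rsf1, 7mer-A1 at chr7:97690620-97690626: atgtgataGAATGTAacaaatta
Rsf1, 7mer-m8 at chr7:97692602-97692608: tgaaatgtTGAATGTcgcattac
Rsf1, 7mer-A1 in the coding sequence at chr7:97639453-97639459: taatgtgaGAATGTAcatagaag
Pak1, 7mer-m8 in the coding sequence, split by a splice junction: taacacttTGAATGTgaagactg
The letters searched were TGAATGTA (8mer), TGAATGT (7mer-m8), GAATGTA (7mer-A1) and GAATGT (6mer) on the transcript strand only. The types overlap, and each match was counted once as its longest type. Only 3′ UTRs and coding sequences were searched.

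Kctd14 (ENSMUSG00000051727, plus strand, 97451323 to 97459557) had 40.3 and 41.0 TPM in the control libraries and 17.3 and 19.6 TPM in the mimic libraries, from expected counts of 2872 and 2315 against 988 and 1167. Both mimic libraries were far below both controls. The group means were 40.6 ± 0.49 and 18.4 ± 1.63 TPM (SD, n = 2 each), and the fitted level with the mimic was 43.0% of the control level, or -1.22 on the log2 scale (standard error 0.10).

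Myo7a (ENSMUSG00000030761, minus strand, 98051060 to 98119524) had 27.1 and 30.6 TPM in the controls and 11.1 TPM in each mimic library, from expected counts of 4504 and 4004 against 1477 and 1763. The groups were again well separated, with means of 28.9 ± 2.48 and 11.1 ± 0.02 TPM (SD, n = 2 each). The fitted level with the mimic was 39.2% of the control level, or -1.35 on the log2 scale (standard error 0.10). The 2 genes differed between the groups to a similar degree, and the TPM ratio of Kctd14 to Myo7a was 1.49 and 1.34 in control libraries and 1.55 and 1.77 in mimic libraries. In bulk RNA, fewer cells of a type and less RNA per cell cannot be told apart.

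Past the threshold in the lower direction were 2 of the 10 members, the 2 that chose the region in this same comparison, so nothing is read from that count. Over all tested genes 3.57% were called, 2.29% lower and 1.28% higher. None of the other 8 members was called by edgeR's quasi-likelihood test. Of these, 7 passed the filter on low counts, with log2 fold changes from -0.23 to 0.43 and a median of -0.02, beside -0.01 over all 17155 tested genes. At an unadjusted p under 0.05 there were 2 of them, Alg8 and Clns1a, both with higher values with the mimic, and 4250 of the 17155 tested genes were at that level. The 95% intervals of the 7 reached no lower than -0.62.

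**Figure D1:**
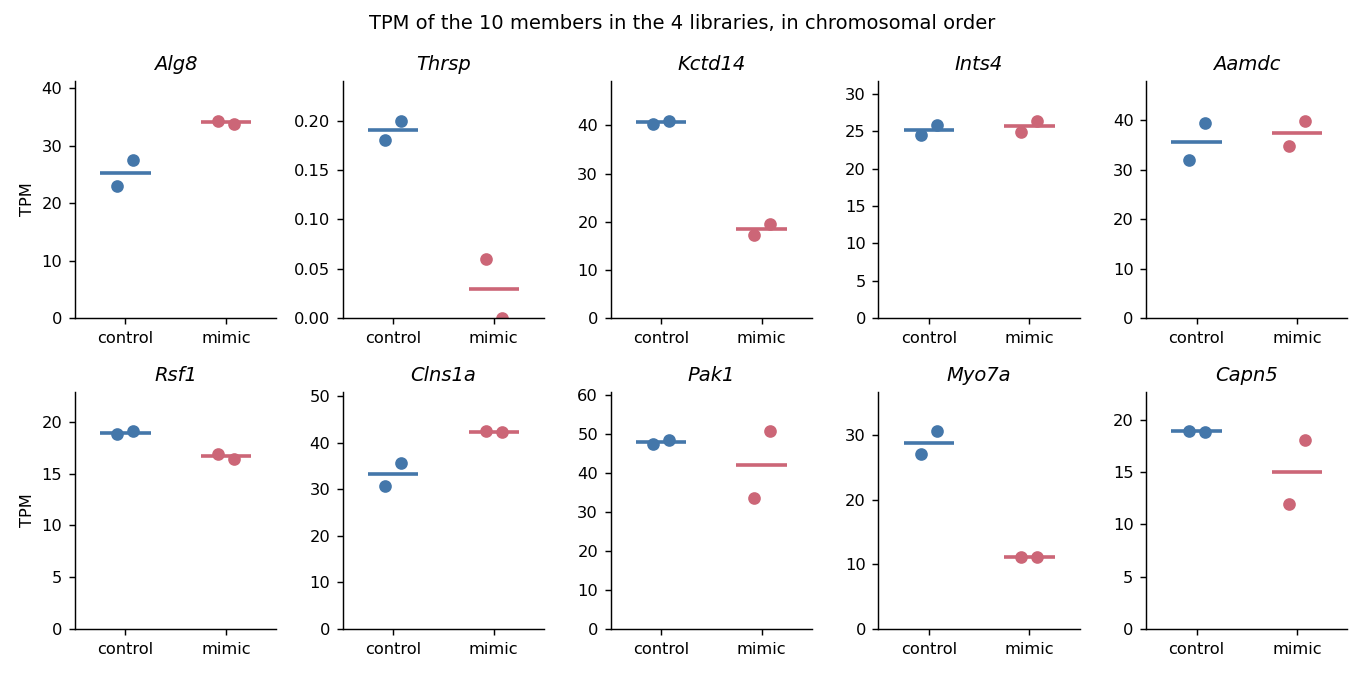
TPM of the 10 members in chromosomal order, with one panel per gene, the 2 mimic control and 2 miR-181a-5p mimic libraries as points, horizontal lines at the group means and vertical axes that start at 0. Kctd14 and Myo7a sit at 17.3 to 19.6 and 11.1 TPM with the mimic against 40.3 to 41.0 and 27.1 to 30.6 TPM in the controls, while the libraries of Ints4, Aamdc and Pak1 overlap between the groups.

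The nearest listed neighbour of Kctd14 is Ints4 (ENSMUSG00000025133, plus strand, 97480956 to 97541395), which starts 21.4 kb beyond its end. Ints4 encodes a subunit of Integrator, the complex that cleaves the 3′ ends of small nuclear RNAs. It had 24.5 and 25.8 TPM in the controls and 24.9 and 26.4 TPM with the mimic, so the groups overlapped. The log2 fold change was 0.01, with a 95% interval from -0.23 to 0.24 (edgeR adjusted p = 0.976). Within a library the TPM ratio of Kctd14 to Ints4 does not depend on library scaling. It was 1.65 and 1.59 in control libraries and 0.692 and 0.741 in mimic libraries. On the other side the nearest listed gene is Thrsp, which had too few counts to be tested and is described below. Beyond Thrsp lies Ndufc2, a complex I subunit that is not among the listed genes. Ndufc2 ends 43.5 kb before Kctd14, and its log2 fold change was 0.01 (95% interval -0.23 to 0.25, edgeR adjusted p = 0.971).

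The listed neighbour of Myo7a on its far side is Capn5 (ENSMUSG00000035547, minus strand, 98121559 to 98178274), a calpain, one of the calcium-dependent cysteine proteases. Only 2.03 kb separate Capn5 from Myo7a, and both are read in the same direction. Capn5 had 18.9 TPM in each control and 11.9 and 18.1 TPM with the mimic, from counts of 2130 and 1781 against 1235 and 2016. Mimic replicate 3 was low and mimic replicate 4 was close to the controls, so that the groups overlapped in normalised counts, while in TPM both mimic libraries were below both controls. The log2 fold change was -0.23 (95% interval -0.62 to 0.15, edgeR adjusted p = 0.415). It was 0.00 without mimic replicate 3 and -0.52 without mimic replicate 4, so its size rests on that library. The TPM ratio of Myo7a to Capn5 was 1.43 and 1.62 in control libraries and 0.933 and 0.613 in mimic libraries.

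Pak1 (ENSMUSG00000030774, plus strand, 97788541 to 97912381) ends 138.7 kb from Myo7a and encodes a kinase effector of the GTPases Rac1 and Cdc42. It had 47.4 and 48.4 TPM in the controls and 33.4 and 50.6 TPM with the mimic. As for Capn5, mimic replicate 3 was low and replicate 4 was not. The log2 fold change was -0.12 (95% interval -0.42 to 0.18, edgeR adjusted p = 0.606), and it turned to 0.04 without mimic replicate 3. The TPM ratio of Myo7a to Pak1 was 0.571 and 0.633 in control libraries and 0.332 and 0.219 in mimic libraries, lower in both mimic libraries.

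Aamdc and Rsf1 form a head-to-head pair in the middle of the region, with 391 bases between their annotated starts. Aamdc (ENSMUSG00000035642, minus strand, 97550331 to 97579497) encodes a Mth938 domain protein linked to adipogenesis. It had 31.9 and 39.5 TPM in the controls and 34.8 and 40.0 TPM with the mimic, and its log2 fold change was -0.02 (95% interval -0.33 to 0.30, adjusted p = 0.957 in edgeR). The control libraries spanned most of that range, and the sign turned to 0.12 without control replicate 2.

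Rsf1 (ENSMUSG00000035623, plus strand, 97579889 to 97692778) encodes the histone-binding subunit of a chromatin remodelling complex built on the ISWI ATPase Smarca5. It had 18.8 and 19.1 TPM in the controls and 16.9 and 16.5 TPM with the mimic. Both mimic libraries were below both controls by a small margin. The log2 fold change was -0.18 (95% interval -0.40 to 0.05), which did not pass the test (edgeR adjusted p = 0.295). Its expected counts were not whole numbers in any of the 4 libraries, and the antisense gene Rsf1os2 overlaps it. Whether the counting used strand is not given in the sources used here, so reads of the pair may be split between them.

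Clns1a and Alg8 had higher values with the mimic. Clns1a (ENSMUSG00000025439, plus strand, 97696634 to 97720796) encodes pICln, a chaperone in the assembly of spliceosomal small nuclear ribonucleoproteins. It had 30.8 and 35.6 TPM in the controls and 42.5 and 42.3 TPM with the mimic, without overlap. The log2 fold change of 0.27 (95% interval 0.01 to 0.54) did not pass after adjustment (edgeR adjusted p = 0.187), and alternatives gave 0.18 to 0.37.

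Alg8 (ENSMUSG00000035704, plus strand, 97371606 to 97392185) lies at the far left and encodes a glucosyltransferase that builds the lipid-linked precursor of N-glycans. It had 23.0 and 27.5 TPM in the controls and 34.4 and 33.8 TPM with the mimic, so that both mimic libraries were above both controls. The log2 fold change was 0.43 (standard error 0.12, 95% interval 0.15 to 0.71), and the edgeR adjusted p was 0.0936. It passed with edgeR's likelihood-ratio test (adjusted p = 0.0352), its exact test (0.0369) and without control replicate 2 (log2 fold change 0.54, adjusted p = 0.0280), and its adjusted p ran from 0.0280 to 0.395 over all alternatives. The TPM ratio of Alg8 to Ints4 was 0.939 and 1.06 in control libraries and 1.38 and 1.28 in mimic libraries.

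Thrsp (ENSMUSG00000035686, minus strand, 97412938 to 97417730), which encodes the lipogenic regulator Spot 14, was close to absent. Control libraries held 7 and 6 of its counts and mimic libraries 2 and 0, or 0.18 and 0.20 TPM against 0.06 and 0.00 TPM. It did not pass the filter on low counts. The summed counts were 13 and 2, a ratio of 0.159 after scaling by library size, with an exact binomial interval of 0.0175 to 0.704 that covers counting error only. Without the filter, edgeR gave Thrsp a log2 fold change of -2.50 with an adjusted p of 0.309.

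Read by their libraries alone, Kctd14 and Myo7a, which were chosen for this difference, had both mimic libraries below both controls in normalised counts. Of the members that entered by position, Thrsp and Rsf1 had both below, and Alg8 and Clns1a had both above. Ints4, Aamdc, Pak1 and Capn5 overlapped. Over all tested genes 29.5% were separated in the lower direction and 28.9% in the higher one. Thrsp did not pass the filter on low counts and is not among those tested genes.

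The order of levels is a description, since the places of Kctd14 and Myo7a in it restate the difference that chose them. In the controls the highest mean was that of Pak1 (47.9 TPM), followed by Kctd14 (40.6), Aamdc (35.7), Clns1a (33.2), Myo7a (28.9), Alg8 (25.2), Ints4 (25.1), Rsf1 (18.9), Capn5 (18.9) and Thrsp (0.19). Among neighbours in that order, Aamdc and Clns1a, Myo7a and Alg8, Alg8 and Ints4, and Rsf1 and Capn5 overlapped between libraries. With the mimic Kctd14 moved from rank 2 to rank 6 and Myo7a from rank 5 to rank 9, ahead of Thrsp only. Clns1a (42.4 TPM), Pak1 (42.0), Aamdc (37.4), Alg8 (34.1) and Ints4 (25.7) stood above Kctd14 (18.4), and Rsf1 (16.7) and Capn5 (15.0) stood between Kctd14 and Myo7a (11.1). In that group Clns1a overlapped Pak1, Pak1 overlapped Aamdc, and Rsf1 overlapped Capn5.

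The annotation holds further genes in the region. Wholly between Kctd14 and Myo7a there were 14 genes, of which 9 were tested and 0 called by edgeR. Over all tested genes 3.57% were called, so a count of 0 among so few genes says little. Of the 9, 5 had a log2 fold change below 0 and 4 above, the median was -0.02, and the lowest adjusted p was 0.187, that of Clns1a. Over the whole span, 12 genes are not among the listed ones, and 6 of them passed the filter. Beside Ndufc2 these were Aqp11, a gene of the water channel family, with counts of 1591 and 1349 against 1215 and 1465 and a log2 fold change of -0.09 (95% interval -0.33 to 0.15, adjusted p = 0.630). Omp, the olfactory marker protein gene that lies inside Capn5 on the same strand, had 44 and 44 counts against 19 and 40 and a log2 fold change of -0.54 (95% interval -1.41 to 0.34, adjusted p = 0.409). Mimic replicate 3 was the low library here as in Capn5. The expected counts of both genes were whole numbers in all 4 libraries. Rsf1os2 (0.06), Rpl15-ps5 (0.58) and Gm45186 (-0.33) had at most 42.8 counts in any library. Their intervals were wide, and that of Gm45186 reached down to -1.70, which takes in the value of Kctd14.

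Of the genes that lie wholly within 1 Mb outside the region, 0 were called in edgeR's quasi-likelihood test, beside 3.57% of all tested genes. Genes that cross an edge of these windows were left out. On the left 4 genes were tested, with a median log2 fold change of -0.02. On the right, beyond Capn5, 9 were tested, 7 of them above 0, with a median of 0.20. Acer3, an alkaline ceramidase gene beyond Capn5, had 0.49 (standard error 0.11, adjusted p = 0.0607). Tsku, a secreted proteoglycan gene, had 0.60 (standard error 0.16, adjusted p = 0.0849), and Thap12 had 0.49 (standard error 0.13, adjusted p = 0.0748). These 3 genes, named after their values were seen, had higher values in both mimic libraries, opposite to Myo7a, as had 28.9% of all tested genes. They were called by the likelihood-ratio test, the exact test and DESeq2. These called 1864, 1788 and 1330 genes over the whole table, against 612 in the quasi-likelihood test. The plot along the chromosome shows the estimates with their intervals.

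**Figure D2:**
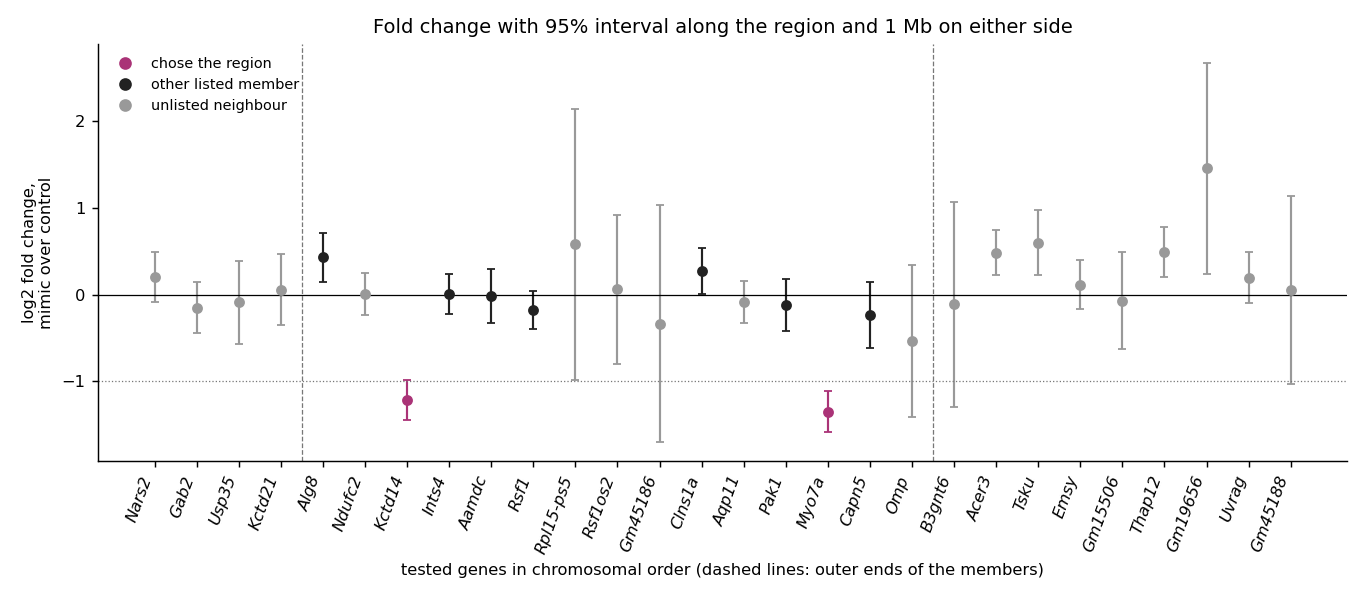
Log2 fold change of mimic against control (vertical axis) with its 95% interval, for genes in chromosomal order and not to distance (horizontal axis). Drawn are the tested genes that lie wholly in the region or wholly within 1 Mb on either side. Dashed lines mark the outer ends of the members, and colours separate Kctd14 and Myo7a, the other listed members and unlisted genes. Kctd14 (-1.22) and Myo7a (-1.35) stand alone below -1 among the genes drawn, with the other tested members between -0.23 and 0.43. Thrsp did not pass the filter on low counts and is not drawn.

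The spacing of the pair was also counted among the called genes, as a description. The starts of Kctd14 and Myo7a are 668.2 kb apart, and 163 of the 392 genes called lower (41.6%) had another gene called lower with a start at most that far away. For the genes called higher the share was 77 of 220 (35.0%). The pair is itself among the 163, and no share was counted for other tested genes. Whether the spacing is unusual was therefore not tested.

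The pattern of the pair over the 4 libraries was set beside that of all 1339 tested genes of chromosome 7 by the root mean square difference of centred log2 CPM. For Kctd14 the closest gene was Myo7a (0.0832), followed by Gm45280 (0.0850) and 2200002J24Rik (0.0888). For Myo7a the closest were Hcst (0.0803), Nupr1 (0.0812) and Gm45280 (0.0827), with Kctd14 at rank 4. None of these 4 other genes lies in the region. Among them Hcst and Gm45280 were near the floor, with at most 0.74 and 0.68 CPM in any library. The highest value of 2200002J24Rik was 3.39 CPM, and Nupr1 had 35.5 to 108 CPM. With 4 libraries in 2 groups, the measure is close to a match of fold changes, and it uses the values that chose the pair.

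Seed matches were not shared by the genes that were lower. The 8mer of Kctd14 printed above falls in the coding sequence of 4 of its 5 coding transcripts and in the 3′ UTR of 1. In the background, 6.09% of the 12847 tested genes with an annotated 3′ UTR held an 8mer in the UTR and 2.65% held one in the coding sequence. The background shares here and below used a single transcript per gene, that with the longest 3′ UTR. Members were searched over all their coding transcripts, so the 2 counts are not fully alike. Myo7a had no match of 6 or more bases in the 3′ UTR or coding sequence of its 5 coding transcripts, the longest of whose UTRs is 567 bases. A match is a description of letters and not a site in use. No match says only that these letters are not in the annotated 3′ UTRs and coding sequences searched.

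The member with the most matches was Rsf1, whose 3′ UTR of 6791 bases held an 8mer, a 7mer-m8, a 7mer-A1 and 2 6mers, beside a 7mer-A1 in the coding sequence. Its log2 fold change was -0.18, as given above. Among tested genes 23.4% held a match of 7 or 8 bases in the 3′ UTR. Pak1 held a 7mer-m8 in the coding sequence, where 15.4% of tested genes held a match of 7 or 8 bases, and Ints4 held 2 6mers there. Alg8, Thrsp, Aamdc, Clns1a and Capn5 held none, also over the 2314 bases of the longest Capn5 3′ UTR.

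**Figure D3:**
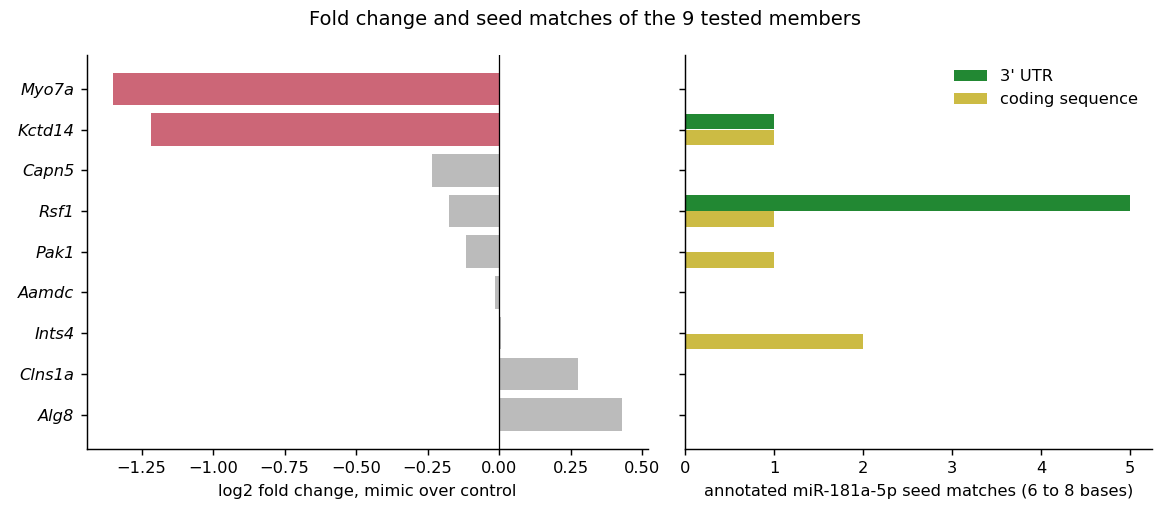
Log2 fold change of mimic against control (bars, left) for the 9 tested members, beside the number of miR-181a-5p seed matches of 6 to 8 bases in their 3′ UTR and coding sequence (bars, right). Rsf1 carries the most matches at a log2 fold change of -0.18, Kctd14 (-1.22) carries 1 8mer that is drawn under both classes because it depends on the transcript, and Myo7a (-1.35) carries none.

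The promoters of 7 of the 10 members were matched in RefSeq (GRCm38.p6) as 300 bases around the start, most of them upstream. Those of Myo7a and Clns1a are shown because they are a CpG-poor promoter of a gene that chose the region and a CpG-rich one of a gene between the pair, with every CpG in capitals and the strand of the gene.
Myo7a, chr7:98119444-98119743, minus strand: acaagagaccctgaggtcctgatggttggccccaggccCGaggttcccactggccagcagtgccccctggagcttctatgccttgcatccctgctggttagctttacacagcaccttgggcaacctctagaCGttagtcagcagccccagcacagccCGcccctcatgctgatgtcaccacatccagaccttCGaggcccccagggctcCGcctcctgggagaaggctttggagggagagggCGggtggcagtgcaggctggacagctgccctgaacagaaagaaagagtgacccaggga
Clns1a, chr7:97696407-97696706, plus strand: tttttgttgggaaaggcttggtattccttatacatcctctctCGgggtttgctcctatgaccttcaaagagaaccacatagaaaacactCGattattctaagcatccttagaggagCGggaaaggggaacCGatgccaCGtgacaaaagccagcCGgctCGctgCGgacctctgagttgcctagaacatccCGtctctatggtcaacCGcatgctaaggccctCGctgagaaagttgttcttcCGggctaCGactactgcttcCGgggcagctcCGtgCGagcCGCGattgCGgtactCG
Myo7a had 6 CpG here, an observed to expected ratio of 0.209, and 30.0% of all 32851 promoters of this length had a lower ratio. Its second listed start had a ratio of 0.259. Clns1a had 20 CpG and a ratio of 0.938, above 90.2% of promoters. Alg8 (0.691), Aamdc (0.713) and the first start of Pak1 (0.877) also exceeded the median of 0.384, as did Ints4 (0.453), whereas Thrsp (0.185) was below it. Of the members compared here, Myo7a was therefore the only tested one with a first promoter below the median, while Kctd14, Rsf1 and Capn5 were not matched.

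The other genes of each member's pathway or family were read from fixed lists, which were chosen with results of these data known. Over all tested genes 3.57% were called, so the numbers called in lists this small are given as description only. The list around myosin VII holds the Usher complex and the microvillus tip complex. Of its 16 genes 12 were tested and 0 were called by edgeR, with a median of -0.16. Myo7b, the brush border relative of Myo7a, had 60.0 and 57.0 TPM in the controls and 45.8 and 56.4 TPM with the mimic, or -0.27 on the log2 scale (standard error 0.11, edgeR adjusted p = 0.173). Its light chain gene Calml4 had -0.30 (adjusted p = 0.184), whereas Cdhr5, a cadherin of the tip links, had 0.32 (adjusted p = 0.252).

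In the KCTD family 18 of 22 genes were tested, with a median of -0.07. Kctd18 was the one called, lower with the mimic. Control libraries held 573 and 416 of its counts and mimic libraries 220 and 279, below both controls in each case (log2 fold change -0.93, standard error 0.16, edgeR adjusted p = 0.0279). Kctd18 lies on chromosome 1, so it does not share a neighbourhood with Kctd14.

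Other lists held 0 genes called by edgeR in either direction. These were 11 tested calpains (median 0.23), 12 lipogenic genes (0.26) and 17 genes of dolichol-linked N-glycan assembly (0.08). The others were 13 Integrator subunits (0.10), 9 ISWI partners (0.21) and 18 genes of methylosome and snRNP assembly (0.21), the partners of Clns1a. Among the calpains Capn9 had the highest value, 1.19 (standard error 0.30, adjusted p = 0.0718).

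**Figure D4:**
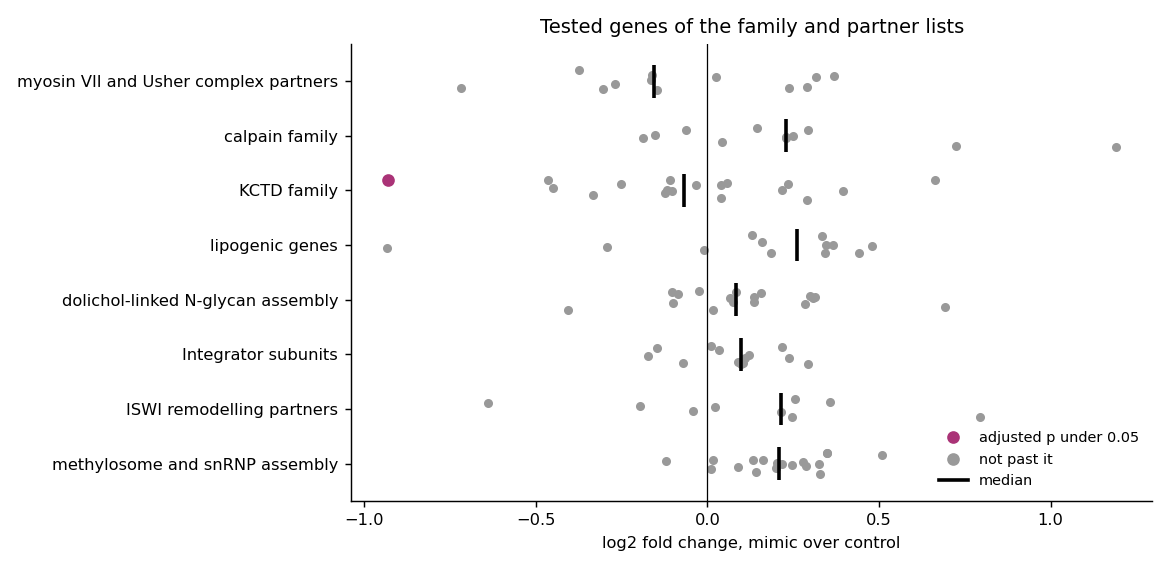
Log2 fold change of mimic against control (horizontal axis) for each tested gene of the family and partner lists described here (rows), with the median of each list and the genes past an adjusted p of 0.05 marked. Medians run from -0.16 to 0.26, and Kctd18 at -0.93 is the one gene past the threshold.

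Cell type markers were read to describe the makeup of the libraries. The epithelial list was high in all libraries (summed 4982 to 5465 CPM), with 1 of 11 genes called higher, Cdx1 (0.47, adjusted p = 0.0477 in edgeR). Enterocyte markers summed to 7081 and 8108 CPM in the controls and 5959 and 5792 CPM with the mimic, with a median of -0.37 over 12 genes. Of these, 2 were called lower, one of them Anpep (-2.14). The 7 stem cell markers had a median of 0.05, with 4 above 0, and 1 was called, Lgr5, which fell by 1.38 on the log2 scale. No marker was called for goblet (7 tested, median 0.15), Paneth (6, -0.64), enteroendocrine (8, -0.14) or tuft cells (5, -0.20). The part of these differences in the lower Kctd14 and Myo7a values was not tested.

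Markers of cells outside the epithelium were near 0. The 10 mesenchymal markers summed to 5.10 to 6.81 CPM in the controls and 6.39 to 8.65 CPM with the mimic, and Col1a2, Col3a1, Dcn and Lum were at 0 in every library. Leukocyte markers summed to 4.23 to 5.32 and 5.68 to 6.49 CPM. Endothelial markers summed to 1.61 to 2.19 and 1.31 to 2.30 CPM, with Cdh5, Kdr and Emcn at 0. Neural and glial markers summed to 4.03 to 5.58 and 3.74 to 3.82 CPM, and 1 of these, S100b, was called lower, with 59 and 33 counts against 9 and 4. Each of these sums was far below the 117 and 129 CPM of Myo7a alone in the controls.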

How the data were processed

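Per the submitters' processing notes, the authors trimmed reads with Trimmomatic and quantified them with RSEM on GRCm38, and deposited expected counts per gene, not normalized, and TPM, scaled to a common total per library. The annotation release and the strand setting are not given in the sources used here. The labels name poly(A) selection and the paper's methods ribosomal RNA depletion. Another 3 columns of each deposited table matched no sample and were not used.

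Rounded expected counts entered edgeR 4.0.16 (R 4.3.3) through filterByExpr, TMM scaling and the quasi-likelihood test (glmQLFit, legacy = FALSE). Adjusted p-values are Benjamini-Hochberg values over the 17155 genes that passed. The standard error is the log2 fold change divided by the square root of F. Intervals are 95%. The steps were tested on simulated data. Replicates of each group differed by more than counting noise. Coordinates, UTRs and coding sequences came from GENCODE M21 (GRCm38), which held 55227 of 55487 genes, and miRNA and promoter sequences from RefSeq GRCm38.p6.

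The members and lists were chosen with earlier results of these data known. Named genes are the members, the tested genes of their span, called genes within 1 Mb, the 3 chromosome 7 genes closest to Kctd14 and to Myo7a, and called genes of each list. Others were named after their values were seen. Alternatives were other edgeR tests, DESeq2 1.42.0, limma 3.58.1 on log2(TPM + 1) or log2(TPM + 0.1) with TPM of at least 1 in 2 libraries or no filter, other scalings and filters, and leaving out each library. The legacy form of the edgeR test was added after seeing the data. One partner list and single markers are not reported here.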

Additional observations from a re-analysis of the deposited data

How the results depend on the processing

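The members past the threshold in the lower direction numbered 2, the pair chosen for this difference, so the alternatives are no support for it. They numbered 2 to 2 in the leave-one-out fits, 1 (Myo7a) with limma on log2(TPM + 0.1) and 0 with limma on log2(TPM + 1) without a filter. The number of genes called over the whole table, 612, was 1864 with the likelihood-ratio test, 1788 with the exact test, 1330 with DESeq2, 192 without a filter on low counts, 75 with limma on log2(TPM + 1), 27 on log2(TPM + 0.1) and 2 without a TPM filter. It ran from 323 (without mimic replicate 3) to 2326 (without control replicate 2) over the leave-one-out fits. Of the 612 genes 392 were lower, against 313 of 585 with library totals in place of TMM. Around the region 0 genes were called, against 3 (Acer3, Thap12 and Tsku) with the likelihood-ratio test, the exact test and DESeq2, and 0 to 3 over the leave-one-out fits (3 without control replicate 2, and Tsku alone without mimic replicate 4). The median log2 fold change of the other tested members, -0.02, ran from -0.15 (without control replicate 1) to 0.051 over the leave-one-out fits. The causes were not tested. Where leaving out a library left 1 in a group, that library was assumed to vary like the other group. No paired analysis was possible because the groups share no replicate numbers. Depth limits Thrsp and the pseudogenes of the region, and the spread between 2 libraries limits the other genes.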
